A study of Mus musculus with 9 samples.

Results

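Prdm1, Maf, Pdpn, Procr and Il10 were followed in CD8+ tumour-infiltrating T cells of mice bearing B16F10, a melanoma line that is grafted into mice. They are 5 of the 23366 gene symbols in the deposited table and were found by their symbols. The transcription factors Blimp-1 (Prdm1) and c-MAF (Maf) stand beside 3 genes tied to interleukin 27: Pdpn, Procr and Il10. All mice were C57BL/6 and bore B16F10 tumours. The WT group had 5 bulk libraries from wild type mice, and the IL27ra KO group had 4 from mice with a knockout of Il27ra, the receptor chain that binds interleukin 27. Each library came from the lysate of about 2000 cells. Neither the kind of deletion, the age of the mice nor the way the cells were sorted is given in the sources used here. Whether each library is a different mouse is not stated, so p-values speak only of library-to-library spread, which could be technical.

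Interleukin 27 is made mainly by myeloid cells and signals through IL27RA and gp130 to STAT transcription factors, STAT3 among them. In T cells it is known for restraining inflammation and for inducing interleukin 10 and inhibitory receptors. Blimp-1 is a zinc finger repressor of effector and exhausted CD8+ T cells, and c-MAF is a basic leucine zipper factor that drives Il10 in T cells and is also made by macrophages. Podoplanin (Pdpn) is a mucin-like membrane protein that binds the platelet receptor CLEC-2, and the protein C receptor (Procr) binds protein C on endothelium. Both have been described on dysfunctional T cells. Interleukin 10 is a suppressive cytokine made by T cells and myeloid cells alike.

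Promoter sequences were at hand for 3 of the 5 genes, Prdm1, Pdpn and Procr, from RefSeq on GRCm38.p6, a later build than the mm9 named for the files. The 250 bases before the annotated gene start were searched on both strands for 4 motifs. They were TTCNNNGAA for STAT factors, TGACTCA for AP-1, TGCTGA for the outer block of the MAF element, and GAAAGT for the core of the Blimp-1 motif. Of 32851 promoter windows of this length, 7.02% held the STAT letters, 4.46% the AP-1 letters, 16.1% the MAF letters and 12.3% the Blimp-1 letters. TGACTCA shares letters with the inner part of the full MAF element. The only match in the 3 promoters was TGACTCA in Procr, starting at position -154 from the gene start. Prdm1 is shown because its RNA was lower in IL27ra KO, and Procr because it held that match, which is in capitals. Both run in the direction of the gene. The Prdm1 window is chr10:44458749-44458998 on the minus strand and the Procr window is chr2:155750967-155751216 on the plus strand.
Prdm1: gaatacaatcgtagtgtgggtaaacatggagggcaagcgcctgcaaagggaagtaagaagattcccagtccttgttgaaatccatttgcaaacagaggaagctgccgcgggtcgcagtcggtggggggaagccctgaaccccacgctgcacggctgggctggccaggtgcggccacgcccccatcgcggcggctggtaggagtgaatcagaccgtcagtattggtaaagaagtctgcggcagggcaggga
Procr: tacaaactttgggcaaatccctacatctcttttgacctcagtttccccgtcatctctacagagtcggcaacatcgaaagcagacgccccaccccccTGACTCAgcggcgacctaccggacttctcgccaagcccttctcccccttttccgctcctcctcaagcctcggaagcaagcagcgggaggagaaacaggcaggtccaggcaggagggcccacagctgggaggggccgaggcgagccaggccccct
A match is a description of the letters and not a binding site, and a missing match says only that these letters are not in the window.

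The values are TMM-normalized FPKM, fragments scaled to gene length and library depth, then adjusted so that most genes match between libraries. Read totals are not given with them. The spacing of low values implied 1730000 to 4090000 fragments per library, a figure that includes the TMM adjustment and so is not a count of sequenced fragments. In each library 13111 to 14358 genes were above 0. Across the 10374 genes averaging 1 FPKM or more, limma called 440 at an adjusted p under 0.05, 4.24% of those tested. Of these, 325 were higher in IL27ra KO (3.13%) and 115 lower (1.11%). Il27ra itself stood at 5.14 to 25.74 FPKM in WT and 4.09 to 7.80 in IL27ra KO (limma, log2 change -1.10, SE 0.34, adjusted p = 0.0996). Its 1 low WT value, 5.14, belonged to the library labelled WT replicate 2 and lay within the IL27ra KO range. Without that library the log2 change was -1.42 (limma adjusted p = 0.00352). Myeloid genes also separated the groups. All 21 tested genes of the macrophage and monocyte list of 22 were higher in IL27ra KO, with a median log2 change of 2.83 against 0.02 over all genes. Their summed level ran from 47.98 to 340.87 FPKM in WT and from 496.1 to 1560.77 in IL27ra KO, lowest there in replicate 4. The 15 CD8 T cell identity genes had a median log2 change of -0.73, and 2 of them, Cd3e and Cd8a, passed as lower. These calls were lost in 6 and 7 of the 9 fits that left out a library. In 5 such fits no gene of the list passed as lower, but without IL27ra KO replicate 4, or with library weights, 9 did. The summed level of the 15 genes ran from 1136.26 to 1789.75 FPKM in WT and from 530.02 to 1377.87 in IL27ra KO, highest there in replicate 4. Of 5 tested dendritic cell genes 4 were higher, but 1 without IL27ra KO replicate 1, 2 or 3, while none of 8 melanoma, 3 NK cell or 3 B and plasma cell genes passed. Being bulk libraries, they cannot tell fewer cells of a type from less RNA per cell.

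Prdm1 fell and Maf rose in IL27ra KO, while Pdpn, Procr and Il10 did not pass the test. Of the 5 genes, 4 passed the filter on low values, and 2 were called, beside 4.24% of all genes tested. The groups did not overlap for the same 2 of 5 members, beside 6.73% of all genes tested. By mean level in WT the order was Prdm1 at 10.6 FPKM, Il10 at 3.75, Pdpn at 2.18, Maf at 1.01 and Procr at 0.836. In IL27ra KO it was Maf at 5.36 FPKM, Pdpn at 3.67, Prdm1 at 3.55, Il10 at 1.86 and Procr at 0.720. In both groups the ranges of all neighbours in this order overlapped.

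**Figure D1:**
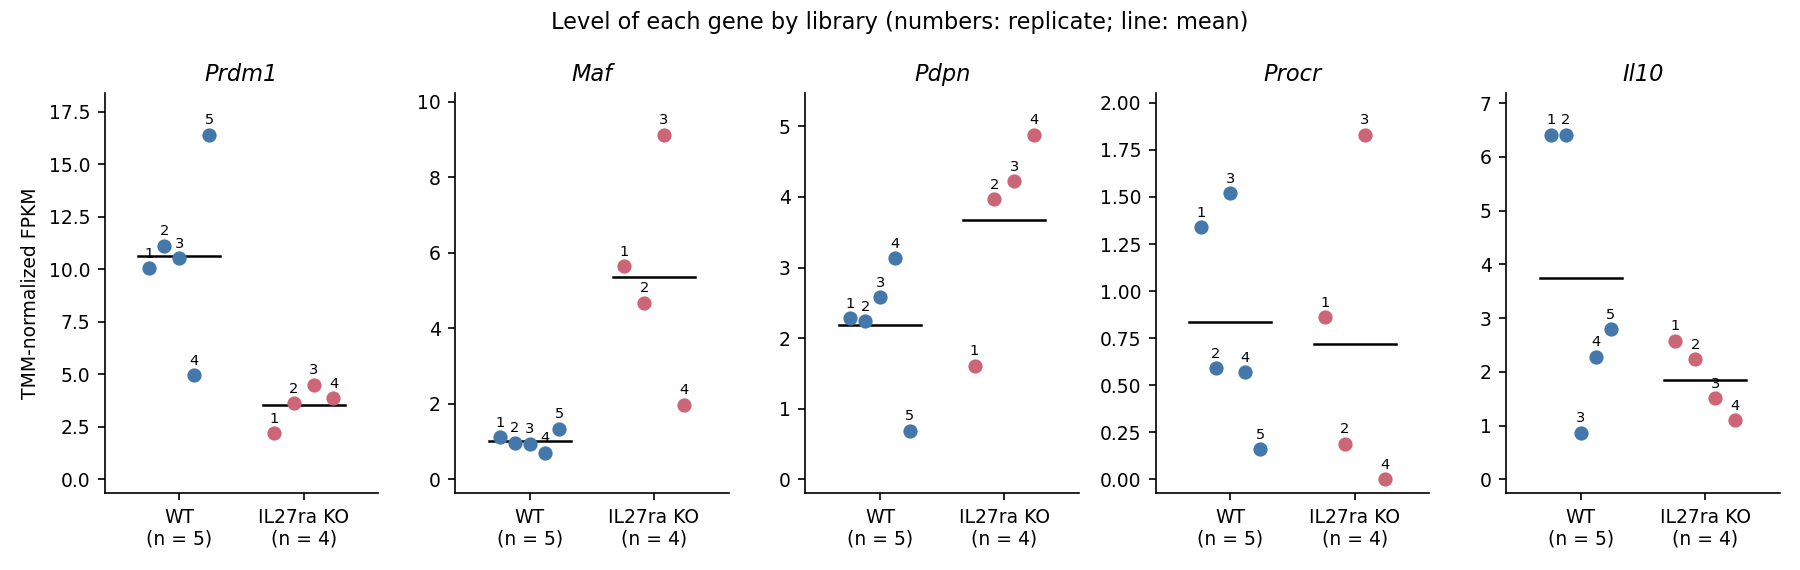
TMM-normalized FPKM (linear axis, a separate scale for each gene) of Prdm1, Maf, Pdpn, Procr and Il10 in each of 5 WT and 4 IL27ra KO libraries; points carry the replicate number and lines are group means. The WT and IL27ra KO points do not overlap for Prdm1 and Maf and overlap for the other 3 genes.

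Prdm1, which encodes the repressor Blimp-1, stood at 10.05, 11.13, 10.54, 4.97 and 16.41 FPKM in WT replicates 1 to 5. In IL27ra KO replicates 1 to 4 it stood at 2.21, 3.64, 4.5 and 3.86. Every WT library was above every IL27ra KO library, but WT replicate 4 was only just above the highest of them. The mean was 10.6 ± 4.06 FPKM (SD, n = 5) in WT and 3.55 ± 0.967 (SD, n = 4) in IL27ra KO, 2.99 times higher in WT. The log2 change, taken on log2(FPKM + 1), was -1.30 (SE 0.28, 95% interval -1.90 to -0.70, limma adjusted p = 0.0159). Without the library labelled WT replicate 2 it was -1.26 (limma adjusted p = 0.0298). The estimated fragments behind these values ran from 60.5 to 355 per WT library and from 44.5 to 70.1 per IL27ra KO library. In the ranking of all genes by mean, Prdm1 went from place 3074 in WT to place 7000 in IL27ra KO.

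Levels of T cell, myeloid and melanoma genes moved with Prdm1. Over the 9 libraries it correlated positively with all 15 CD8 T cell identity genes (median r = 0.713), and inversely with all 21 macrophage genes (median -0.735) and all 8 tested melanoma genes (median -0.650). With group means subtracted the medians were 0.377, 0.062 and -0.537. The melanoma genes summed to 419.61 to 1377.97 FPKM in WT and 678.55 to 1469.09 in IL27ra KO, and their part in the level of Prdm1 was not tested. Its level per 100 FPKM of Cd8a, which encodes the CD8 alpha chain, was 14.4, 9.69, 12.8, 7.84 and 14.7 in WT and 8.79, 9.75, 14.1 and 5.46 in IL27ra KO. These ratios overlapped between the groups. Measured against the mean log2 level of the 15 CD8 T cell identity genes, Prdm1 was -2.68 ± 0.476 (SD, n = 5) in WT and -3.28 ± 0.486 (SD, n = 4) in IL27ra KO. The difference, -0.60, had an exact permutation p of 0.111 (two-sided, n = 9, smallest possible 0.0159), and the groups overlapped. IL27ra KO replicate 4 was apart from the other 3. Its CD8 identity level, 6.21, was within the WT range of 5.92 to 6.53, while its Prdm1 was 3.86 FPKM, below all WT libraries. Scaled to the CD8 identity genes, the log2 change of Prdm1 was -0.70 (limma adjusted p = 0.109), a scaling that moved the median of all genes to 0.61. Relative to that median the change was -1.31, against -1.32 with the deposited scaling. Multiplying each library by a factor moves a gene and that median nearly alike, so the likeness of these values is no test of the change. Without IL27ra KO replicate 1 the change was -1.14 (limma adjusted p = 0.0712), and with the macrophage level as a covariate -1.45 (adjusted p = 0.444).

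**Figure D2:**
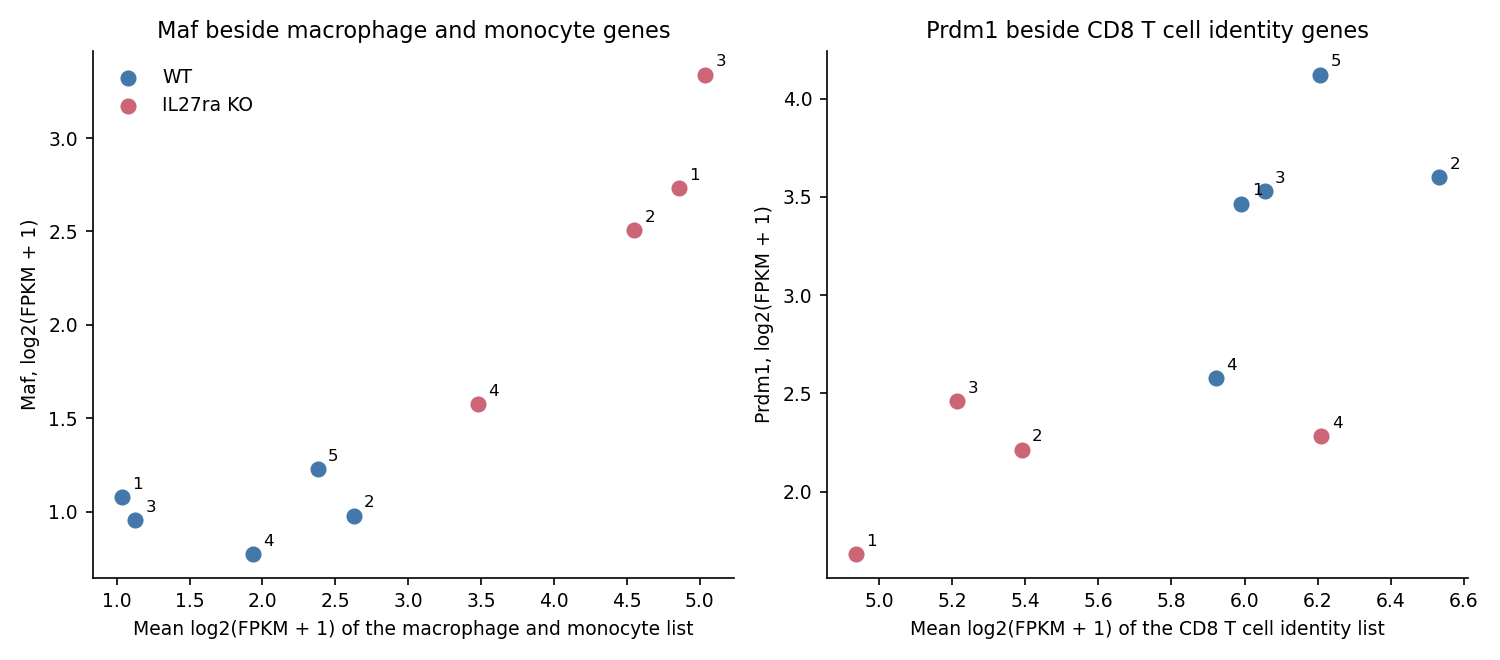
Left, Maf against the mean level of the macrophage and monocyte list; right, Prdm1 against the mean level of the CD8 T cell identity list, all as log2(FPKM + 1), 1 point per library with its replicate number, 5 WT and 4 IL27ra KO. IL27ra KO replicate 4 has a CD8 identity level of 6.21, inside the WT range, and the lowest macrophage level of its group, 3.48.

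Other genes of the Blimp-1 circuit were read from a list of 13 genes that Blimp-1 represses in T cells. Of 11 tested, 2 were higher in IL27ra KO and none lower, beside 3.13% and 1.11% of all genes tested. The median log2 change was 0.38, against 0.02 over all genes. Klf2, a factor of naive and recirculating T cells, stood at 7.76 to 15.02 FPKM in WT and 18.54 to 27.66 in IL27ra KO (limma log2 change 1.17, adjusted p = 0.00768). Fos, a subunit of AP-1, stood at 54.24 to 95.94 FPKM in WT and 129.94 to 208.03 in IL27ra KO (limma log2 change 1.14, adjusted p = 0.0110). The call of Fos was lost without IL27ra KO replicate 1 or 3, at adjusted p up to 0.0634. With the replicate number as a block, neither Klf2 nor Fos passed limma (adjusted p = 0.0668 and 0.0681). With the macrophage level as a covariate they had log2 changes of 1.14 and 0.92 (limma adjusted p = 0.444 and 0.551). The part of myeloid cells in their levels was not tested. Bcl6, the factor that Blimp-1 opposes in lymphocytes, overlapped between the groups at 1.11 to 4.17 FPKM and 2.49 to 3.59 FPKM, with a limma log2 change of 0.37 and an adjusted p of 0.547. Of the 10 genes of the PRDM list in the table, 8 were tested and none passed, with a median of 0.19.

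Among genes averaging 5 FPKM or more, Stat3 followed Prdm1 most closely over the 9 libraries (Pearson r = 0.976 on log2(FPKM + 1)), then Ubash3b (0.972), Tapbp (0.960), Nr4a2 (0.958) and Tnfrsf9 (0.955). All 9 points come from the same 9 libraries as the group comparison, so part of each r is the difference between the groups. With group means subtracted, Stat3 was still first at 0.925, followed by Tapbp at 0.918. Stat3, which carries interleukin 27 signals, stood at 38.13 to 75.19 FPKM in WT and 23.33 to 29.61 in IL27ra KO (limma log2 change -1.09, adjusted p = 0.0116). It was the 1 gene of 10 tested in the interleukin 27 pathway list to pass, beside 1.11% of all genes tested called lower. The list median was -0.14. Stat3 no longer passed limma when IL27ra KO replicate 1 was left out (adjusted p = 0.0572) or with CD8 identity scaling (log2 change -0.40, adjusted p = 0.265). Nor did it pass limma with equal totals (adjusted p = 0.122), the replicate number as a block (0.0794) or the macrophage level as a covariate (0.397).

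Maf stood at 1.11, 0.97, 0.94, 0.71 and 1.34 FPKM in WT replicates 1 to 5. In IL27ra KO replicates 1 to 4 it stood at 5.64, 4.68, 9.12 and 1.98. The groups did not overlap, and replicate 4 was the lowest of IL27ra KO, nearest to WT. The mean was 1.01 ± 0.232 FPKM (SD, n = 5) in WT and 5.36 ± 2.95 (SD, n = 4) in IL27ra KO, 5.28 times higher in IL27ra KO. The log2 change was 1.54 (SE 0.29, 95% interval 0.91 to 2.17, limma adjusted p = 0.00815), and 1.53 without the library labelled WT replicate 2. Each library left out in turn gave 1.27 to 1.86, all past the threshold. With 10.3 to 34.9 estimated fragments per WT library, the WT level is known only coarsely.

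The level of Maf moved with myeloid genes. Csf1r, the receptor for macrophage colony stimulating factor, stood at 0.22, 1.70, 0.88, 3.30 and 4.01 FPKM in WT and at 44.96, 27.42, 49.03 and 10.99 in IL27ra KO. Lyz2, the lysozyme of macrophages and neutrophils, stood at 9.82, 85.39, 9.37, 34.72 and 40.86 FPKM in WT and at 440.16, 516.28, 575.88 and 182.75 in IL27ra KO. IL27ra KO replicate 4 was the lowest of its group for both, as it was for Maf. With the macrophage level as a covariate the log2 change of Maf was 0.38 (SE 0.60, limma adjusted p = 0.821), while the list's level does not overlap between the groups, so genotype and myeloid RNA cannot be told apart.

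Maf rose by less than the myeloid genes did. Per 100 FPKM of Csf1r, Maf stood at 21.5 to 504 in WT and 12.5, 17.1, 18.6 and 18.0 in IL27ra KO. The 4 IL27ra KO ratios lay close together and below every WT ratio. Per 100 FPKM of Lyz2 they overlapped, at 1.14 to 11.3 in WT and 0.907 to 1.58 in IL27ra KO. Measured against the mean log2 level of the macrophage list, Maf was -0.82 ± 0.720 (SD, n = 5) in WT and -1.94 ± 0.187 (SD, n = 4) in IL27ra KO. The difference was -1.12, with an exact permutation p of 0.0159, the smallest possible for 5 against 4 (two-sided, n = 9), and the groups did not overlap. The list level alone differed by 2.66 without overlap, at the same exact permutation p. A gene with no change would also come out lower against it, so this p-value is no separate test of Maf. Within WT, replicate 1 had the lowest list level, 1.03, and 1.11 FPKM of Maf, while replicate 2 had the highest, 2.63, and 0.97 FPKM. With group means subtracted, Maf correlated with all 21 macrophage genes (median r = 0.539, range 0.272 to 0.857) and inversely with all 15 CD8 identity genes (median -0.653). The median over all genes was 0.014. Genes near to Maf over the 9 libraries were Mpp1 (r = 0.983), Tnfrsf1a (0.977), Gsn (0.968) and Slfn4 (0.959).

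Among 14 listed genes linked to c-MAF in T cells, 7 were tested. Of these, 3 were lower in IL27ra KO and none higher, beside 1.11% and 3.13% of all genes tested. The median log2 change was -0.59, against 0.02 over all genes. The list was chosen with earlier results of these data known. The 3 lower genes were the inhibitory receptors Lag3, Tigit and Ctla4. Lag3 stood at 19.39 to 94.08 FPKM in WT and 1.96 to 3.57 in IL27ra KO (limma log2 change -3.53, adjusted p = 0.000472). Tigit had a log2 change of -2.41 (limma adjusted p = 0.00255) and Ctla4 of -1.78 (limma adjusted p = 0.00250). With the macrophage level as a covariate Tigit and Ctla4 did not pass (limma adjusted p = 0.364 and 0.211), while Lag3 did (0.0348). Il4 and Il22, cytokines that c-MAF drives in helper T cells, were listed at 0 in all 9 libraries.

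**Figure D3:**
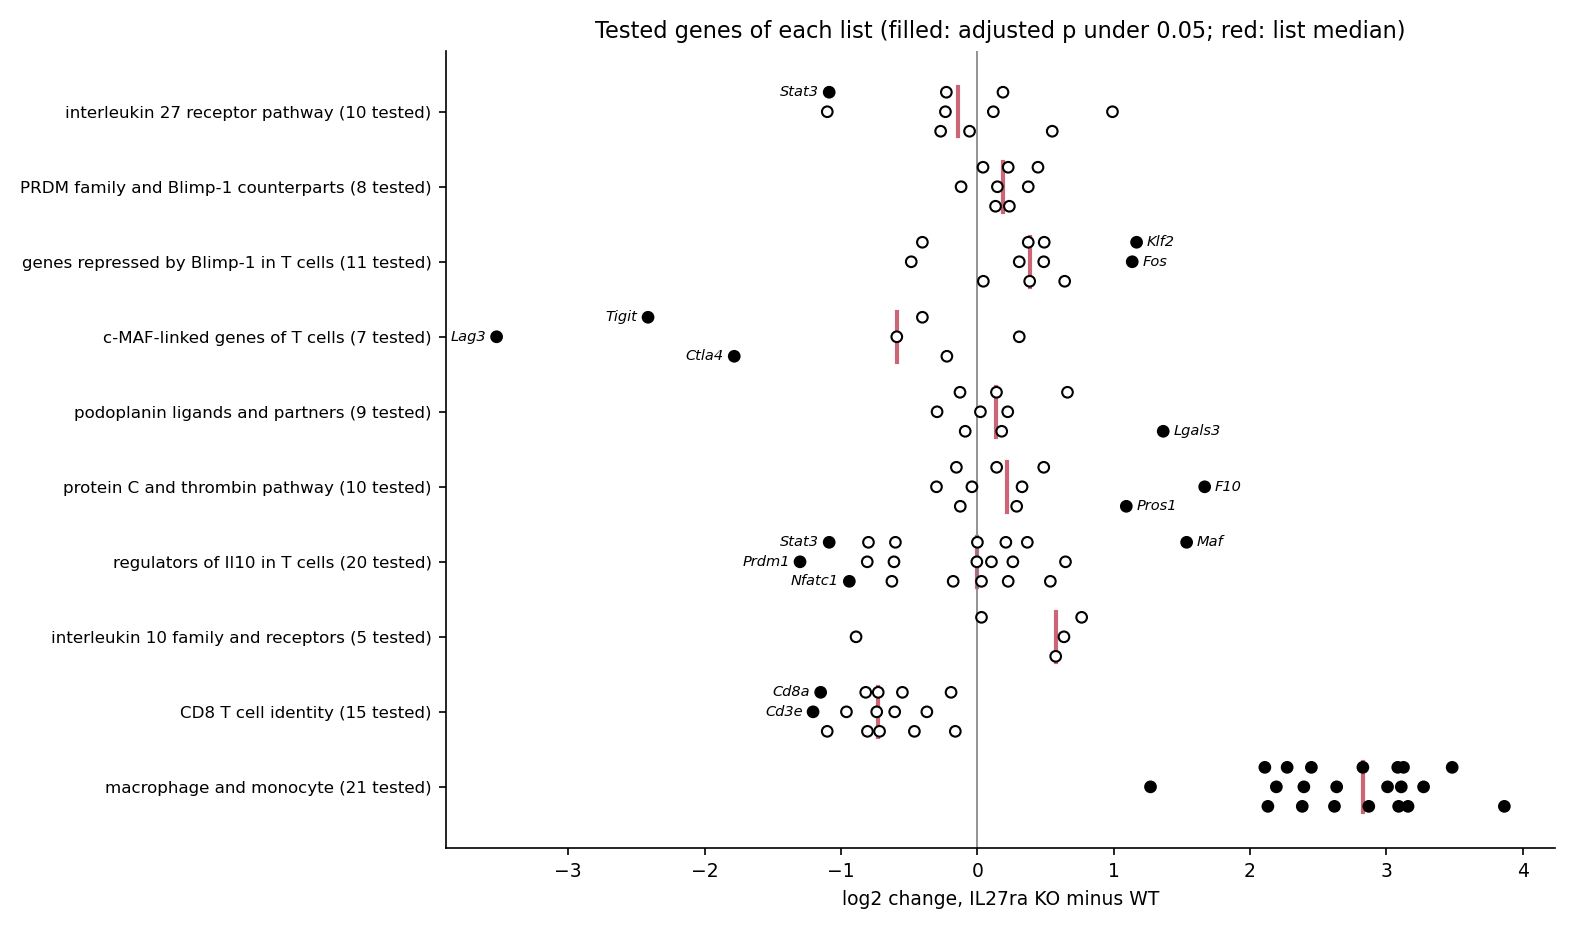
Log2 change (IL27ra KO minus WT, on log2(FPKM + 1)) of each tested gene in 10 gene lists; filled points passed limma at an adjusted p under 0.05, and red lines are list medians. All 21 macrophage genes lie to the right of 0, and the 3 named c-MAF-linked genes lie to the left.

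Pdpn, the gene of podoplanin, stood at 2.28, 2.24, 2.58, 3.13 and 0.69 FPKM in WT replicates 1 to 5 and at 1.61, 3.97, 4.22 and 4.88 in IL27ra KO replicates 1 to 4. Of the 4 IL27ra KO libraries, 3 were above all of WT, and replicate 1 was below 4 of the 5 WT libraries. The mean was 2.18 ± 0.908 FPKM (SD, n = 5) in WT and 3.67 ± 1.43 (SD, n = 4) in IL27ra KO. The log2 change, 0.55 (SE 0.30, 95% interval -0.09 to 1.19, limma adjusted p = 0.432), did not pass. With a library left out it ran from 0.34 (without WT replicate 5) to 0.81 (without IL27ra KO replicate 1), never past the threshold. Scaled to the CD8 identity genes it was 1.03 and passed (limma adjusted p = 0.0449). Relative to the median of all genes it was 0.42 there, against 0.53 with the deposited scaling, values that such scaling keeps nearly alike. IL27ra KO replicate 4, lowest for Csf1r in its group, was highest for Pdpn at 4.88 FPKM. Over the 9 libraries Pdpn correlated positively with all 21 macrophage genes (median r = 0.299), but with group means subtracted with only 1 of 21 (median r = -0.438). Fibroblasts also make podoplanin. None of 10 fibroblast genes reached the filter, with a summed level of 0.77 to 1.95 FPKM in WT and 0.93 to 2.00 in IL27ra KO, and their part in the level of Pdpn was not tested. Pdpn itself rested on an estimated 5.1 to 30.5 fragments per library. Of 9 tested podoplanin ligands and partners, 1 was higher, beside 3.13% of all genes tested. It was Lgals3, a galectin also abundant in macrophages (29.27 to 80.47 FPKM in WT, 94.49 to 133.04 in IL27ra KO, limma adjusted p = 0.0110). With the macrophage level as a covariate the log2 change of Lgals3 was 0.51 (limma adjusted p = 0.746). Clec1b, which encodes CLEC-2, was listed at 0 in 8 of 9 libraries.

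Procr was the least expressed of the 5 genes and fell under the filter, with a mean of 0.784 FPKM over 9 libraries. It stood at 1.34, 0.59, 1.52, 0.57 and 0.16 FPKM in WT and at 0.86, 0.19, 1.83 and 0.00 in IL27ra KO. The groups overlapped throughout, and the highest and lowest values were both IL27ra KO libraries. These values rest on an estimated 0 to 7.4 fragments per library. The log2 difference was -0.16 (exact permutation p = 0.698, two-sided, n = 9), and limma without the filter gave a 95% interval of -0.86 to 0.55. Of the protein C and thrombin pathway, 10 of 18 genes were tested, with a median log2 change of 0.22 against 0.02 over all genes. Higher in IL27ra KO were 2, beside 3.13% of all genes tested. These were F10, coagulation factor X (0.54 to 1.14 FPKM in WT, 2.40 to 11.58 in IL27ra KO, limma adjusted p = 0.00723), and Pros1, the protein S cofactor (0.35 to 1.69 FPKM in WT, 2.02 to 3.49 in IL27ra KO, limma adjusted p = 0.0208). The call of Pros1 was lost in 4 of the 9 fits that left out a library. With the macrophage level as a covariate F10 and Pros1 had log2 changes of 0.91 and 0.53 (limma adjusted p = 0.639 and 0.719). The part of myeloid cells in their levels was not tested. Thbd, thrombomodulin, was under the filter at 0 to 0.34 FPKM in WT and 0.46 to 2.54 in IL27ra KO, without overlap. Endothelial markers were low in both groups, with a summed level of 2.56 to 7.84 FPKM in WT and 5.86 to 10.55 in IL27ra KO, most of it Pecam1, and their part in the level of Procr was not tested.

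Il10 stood at 6.41, 6.41, 0.87, 2.28 and 2.79 FPKM in WT replicates 1 to 5 and at 2.58, 2.24, 1.51 and 1.10 in IL27ra KO replicates 1 to 4. WT replicates 1 and 2 were above every other library, and the other 3 WT libraries spanned the IL27ra KO range. The mean was 3.75 ± 2.53 FPKM (SD, n = 5) in WT and 1.86 ± 0.674 (SD, n = 4) in IL27ra KO. The log2 change was -0.58 (SE 0.37, 95% interval -1.37 to 0.21, limma adjusted p = 0.524), which did not pass. Replicate 2, 1 of the 2 high WT libraries, is also the one whose Il27ra lay in the IL27ra KO range, and without it the change was -0.37 (limma adjusted p = 0.667). Leaving out WT replicate 1 also gave -0.37, and leaving out WT replicate 3 gave -0.87 (limma adjusted p = 0.188). An estimated 2.0 to 29.1 fragments stood behind each value. Scaled to the CD8 identity genes the log2 change was -0.04. Relative to the median of all genes it was -0.65 there, against -0.60 with the deposited scaling, values that such scaling keeps nearly alike. Over the 9 libraries the median r of Il10 was -0.242 with the macrophage genes and 0.281 with the CD8 identity genes. With group means subtracted both changed sign, to 0.334 and -0.022.

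Of 20 tested regulators of Il10 in T cells, 1 was higher, Maf, and 3 were lower, Prdm1, Stat3 and Nfatc1, with a median log2 change of 0.00. Over all genes tested, 3.13% were higher and 1.11% lower. Maf and Prdm1 are members of this report and Stat3 was described above, so this count repeats those calls and adds only Nfatc1. None of the list passed as lower with equal totals, CD8 identity scaling, the replicate number as a block or the macrophage covariate. The same held without IL27ra KO replicate 1. Nfatc1, an effector of calcium signals from the T cell receptor, stood at 18.33 to 29.97 FPKM in WT and 9.44 to 17.66 in IL27ra KO (limma adjusted p = 0.0266), a call lost in 5 of the 9 fits that left out a library and with CD8 identity scaling (log2 change -0.28). Neither receptor chain of interleukin 10 passed. Il10ra stood at 12.81 to 41.52 FPKM in WT and 7.83 to 15.71 in IL27ra KO (limma log2 change -0.89, adjusted p = 0.159). Il10rb stood at 16.35 to 19.82 FPKM in WT and 26.60 to 28.92 in IL27ra KO, without overlap (limma log2 change 0.58, adjusted p = 0.0684). Il10rb did pass limma with quantile normalization (adjusted p = 0.0451), equal totals, CD8 identity scaling, library weights or no filter, and without the library labelled WT replicate 2 (adjusted p = 0.0301). Regulatory T cells, which make both Blimp-1 and interleukin 10, were read from Foxp3, at 0 to 5.53 FPKM in WT and 0.52 to 1.07 in IL27ra KO (limma log2 change -0.91, adjusted p = 0.369). Foxp3 passed limma as lower with library weights (adjusted p = 0.0248) and without the library labelled WT replicate 2, where it was listed at 0 (log2 change -1.31, adjusted p = 0.0391). The 7 genes of the regulatory and CD4 T cell list summed to 64.4 to 126.5 FPKM in WT and 20.26 to 37.54 in IL27ra KO. Of 6 tested, 2 were lower and 1 higher, beside 1.11% and 3.13% of all genes tested. Ctla4 made up most of these sums, at 50.84 to 111.75 FPKM in WT and 13.68 to 25.93 in IL27ra KO. The 2 lower genes were Ccr8 and Ctla4, the latter also counted above among the c-MAF-linked genes. The 1 higher call, of Cd40lg, fell away in 7 of the 9 fits that left out a library. The part of regulatory T cells in the levels of Prdm1 and Il10 was not tested. Plasma cells are another source of Prdm1. The 9 B and plasma cell genes summed to 12.29 to 21.99 FPKM in WT and 19.07 to 27.08 in IL27ra KO, with the highest single value, 23.14, that of Xbp1, which other cells also make. Igj and Ms4a1 of this list were at 0 in all 9 libraries, and the part of these cells in the level of Prdm1 was not tested.

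**Figure D4:**
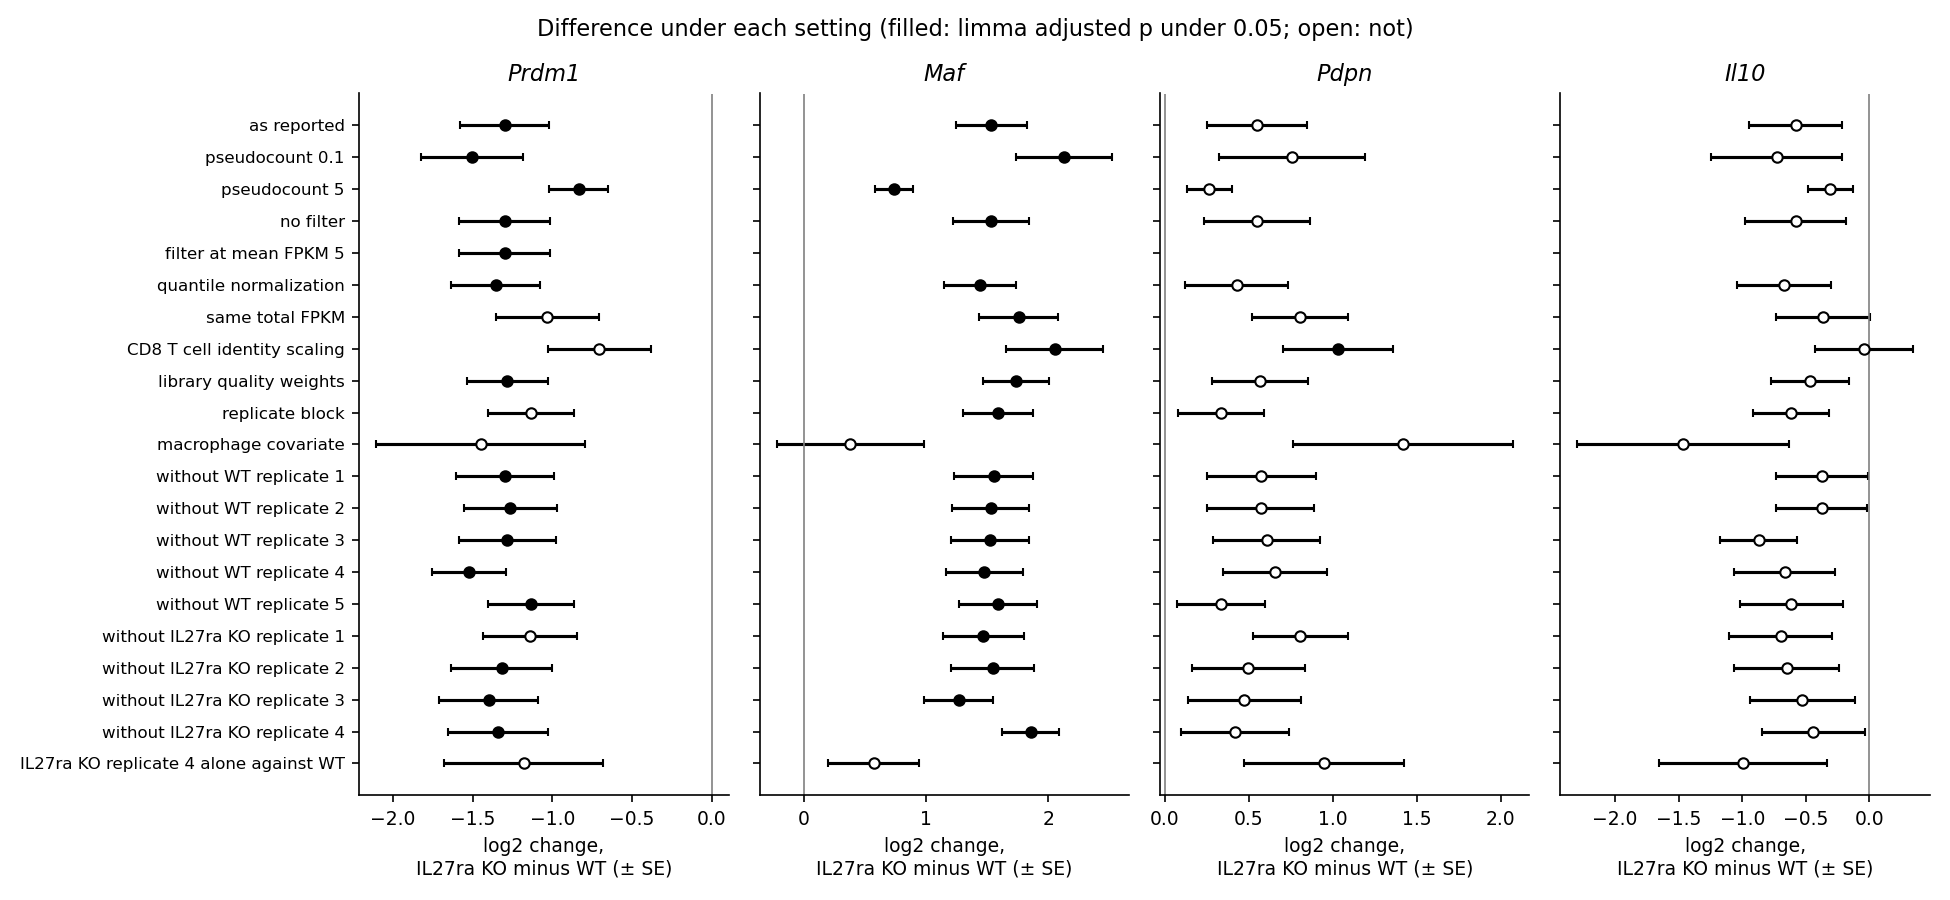
Log2 change (IL27ra KO minus WT, ± SE) of Prdm1, Maf, Pdpn and Il10 under each processing setting; filled points passed limma at an adjusted p under 0.05. Prdm1 stays left of 0 in every setting drawn, from -1.52 to -0.70, and Maf stays right of 0, from 0.38 to 2.13.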

How the data were processed

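Bulk CD8+ T cell lysates were made into libraries with an adaptation of SMART-Seq 2, per the labels' protocols. Per the labels, the authors deposited FPKM per gene, estimated by RSEM and normalized by TMM. The submitters' processing notes name TopHat, RSEM, DESeq and mm9, without versions, roles or order. The method has no molecular identifiers, and RSEM can divide fragments between similar genes. A change in the makeup of a library shifts all of its normalized values.

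From these values log2(FPKM + 1) was computed. The 10374 genes averaging 1 FPKM or more over 9 libraries entered limma 3.58.1 (R 4.3.3; lmFit, trended eBayes) as IL27ra KO minus WT, with Benjamini-Hochberg adjustment over all of them and a threshold of 0.05. Single values used two-sided exact permutation tests over all 126 splits (Python 3.11.15, scipy 1.17.1). The fit was tested on simulated data. Depth was estimated from steps of low values in 3259 single-transcript genes, with lengths from GENCODE, where 60.9% to 69.4% of low values came within 0.1 of a multiple of 1 fragment (20% if evenly spread). The fragments behind a gene use its longest coding transcript and are rough.

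The members and the 18 gene lists were chosen with earlier results of these data known. Named genes are the members, a short set of related genes, up to 4 passing members of each list and the 2 most abundant others, and the 5 genes most like each member. Also tried were a pseudocount of 0.1 or 5, a filter at 5 FPKM or none, quantile, equal-total and CD8 identity scaling, library weights, the replicate number as a block, a macrophage covariate and each library left out. IL27ra KO replicate 4 alone against WT, and 3 fits of Procr without the filter, were added after seeing the data. A few results under this rule, and 1 of the lists, are left out here. The table has 0 columns of other samples.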

Additional observations from a re-analysis of the deposited data

Results flagged for a closer look

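Values of single libraries that stood far from the rest of their group were looked for with Dixon's test at the 95% level in 70 groups of 4 or 5 libraries, where chance gives about 1 in 20. Emr1, a macrophage gene, was 2.09 FPKM in WT replicate 5, against 0.41 in the nearest. Foxp3 was 1.07 FPKM in IL27ra KO replicate 3, against 0.55. Il10ra was 41.52 FPKM in WT replicate 5, against 20.17, and that library also had the most Prdm1. Clec1b was 0.54 FPKM in WT replicate 1 and 0 in the other 4.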

How the results depend on the processing

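Prdm1 stayed lower in IL27ra KO and Maf higher under all alternatives run, but not always past the threshold. The number of genes called, 440, became 219 with a filter at 5 FPKM, 1246 with CD8 identity scaling, 974 with library weights, 4 with the macrophage covariate and 2 with IL27ra KO replicate 4 alone against WT, and 226 to 632 with a library left out. Higher and lower calls split 525 and 65 with equal totals and 1194 and 52 with CD8 identity scaling, against 325 and 115, as the median of all genes moved to 0.29 and 0.61. Prdm1 lost its call with equal totals (-1.03), CD8 identity scaling (-0.70), the macrophage covariate (-1.45) and IL27ra KO replicate 4 alone (-1.18), and ran from -1.52 to -1.13 with a library left out. Maf lost its call with the macrophage covariate (0.38) and with replicate 4 alone (0.57), a fit in which the lone library is assumed to vary like WT. Pdpn passed with CD8 identity scaling (1.03). Procr, never past a threshold, changed sign with that scaling (0.19) and ran from -0.44 to 0.064 with a library left out. Under the macrophage covariate Il27ra (0.57), Lyz2 (-0.079) and Foxp3 (0.33) changed sign. The cause was not tested.

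The values showed no pairing of libraries by replicate number, but with so few libraries they cannot exclude it. Same-numbered libraries correlated at 0.003, -0.008, -0.066 and -0.147 in their deviations from group means. The highest correlation, 0.126, was between WT replicate 3 and IL27ra KO replicate 4. With the replicate number as a block, 273 genes were called and Prdm1 was -1.13 (limma adjusted p = 0.0571). A filter at 5 FPKM leaves no value for Maf, Pdpn, Procr and Il10. Few fragments limit Procr, Il10 and Pdpn most.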
